A study of Mus musculus with 29 samples.

Results

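Gene expression after transfection of a miR-29a mimic was compared directly with expression after transfection of a Let-7b mimic, in C2C12 cells. The 6 arrays were chosen by their labels, 3 for miR-29a and 3 for Let-7b, out of 29 arrays in the series. C2C12 is an established mouse myoblast line that divides in rich medium and fuses into multinucleated myotubes when serum is withdrawn. All 6 cultures were proliferating myoblasts at passage 27 that had received 50 nM of a Qiagen mimic, a synthetic double-stranded RNA that imitates a mature microRNA, with the reagent HiPerFect, and were harvested 36 h later. Each microRNA was transfected in 3 independent experiments, and the experiments carry the same replicate numbers for both microRNAs. All cells come from 1 line, and both groups carry a mimic, so neither is untreated. AllStar, a negative control oligonucleotide given at the same dose and for the same time, has 3 values here and was used only to place the levels of both groups. Another 5 mimic groups (miR-1, miR-22, miR-34a, miR-145 and miR-365) entered only the estimate of the spread between replicates. RNA was hybridised to Affymetrix Mouse Gene 1.0 ST arrays, and the values are log2 levels in which 1 unit is a factor of 2.

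MicroRNAs load into Argonaute proteins and pair through their seed, bases 2 to 8, with sites in the 3′ untranslated regions of messenger RNAs, which are then degraded or translated less. miR-29 is known for lowering collagens and other matrix genes and the enzymes that write and remove DNA methylation, and let-7 for lowering growth genes such as Nras and Hmga2 as cells differentiate. In the integrated stress response, kinases that sense amino acid shortage, endoplasmic reticulum stress, haem shortage or double-stranded RNA phosphorylate eIF2 alpha, which lowers general translation and raises translation of the transcription factor ATF4. ATF4 and its partner CHOP, the product of Ddit3, switch on genes of amino acid uptake and synthesis, tRNA charging and cell death. In myoblasts the factors Myod1, Myf5, Myog and Mef2c switch on the genes of the contractile sarcomere, and amino acid shortage and endoplasmic reticulum stress both alter that programme.

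The mature sequences annotated for the 2 microRNAs are shown because the comparison sets 2 different seeds against each other. They are the RefSeq entries of GRCm38.p6, at chr6:31062673-31062694 on the minus strand for miR-29a-3p and at chr15:85707325-85707346 on the plus strand for let-7b-5p, with the seed in capitals. The labels name the microRNAs without a strand or a sequence, so that the loaded strand is taken from the annotation.
mmu-miR-29a-3p: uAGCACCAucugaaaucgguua
mmu-let-7b-5p: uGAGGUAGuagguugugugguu
The miR-29a seed pairs with TGGTGCT and is carried by 3 mature names in the table, miR-29a, miR-29b and miR-29c. The Let-7b seed pairs with CTACCTC and is carried by 11 names, which are let-7 family members and miR-98 apart from miR-1961. The probe set for the miR-29a hairpin read 5.05, 4.85 and 5.15 in miR-29a cells and 5.79, 5.47 and 5.40 in Let-7b cells. These Mir29a values lie under 6.67, the median level of probe sets with no listed gene, so this probe set does not check the mimic.

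The 6 arrays had median log2 levels of 7.32, 7.34 and 7.33 for miR-29a and of 7.35, 7.37 and 7.33 for Let-7b, and pairwise correlations across probe sets among the 21 mimic arrays ran from 0.976 to 0.996. Of 10 myoblast markers, 9 lay above 6.67 on all 6 arrays. Of 6 macrophage markers 1 did so, as did 1 of 6 endothelial, 2 of 5 bone and cartilage, 3 of 6 adipocyte and 3 of 6 fibroblast markers. The median level over the fibroblast markers was 6.65 in miR-29a cells and 6.66 in Let-7b cells. These are bulk samples, in which fewer cells of a type and less RNA per cell cannot be told apart.

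Of 19938 genes tested, 3013 (15.1%) differed between miR-29a and Let-7b cells at an adjusted p under 0.05 (limma, two-sided, Benjamini-Hochberg). Expression was higher in miR-29a cells for 1638 genes (8.22%) and lower for 1375 (6.9%). A difference of at least 1.5-fold was reached by 888 genes (4.45%), which were 466 of the higher genes (2.34% of all genes) and 422 of the lower genes (2.12%). Over all genes the median log2 difference, miR-29a minus Let-7b, was 0.01. For 5891 genes (29.5%) the 3 values of each group did not overlap. Against the AllStar values, all 3 miR-29a values lay below all controls for 58.0% of the genes that were lower, and all 3 Let-7b values lay above them for 53.2%. Among genes that were higher, all 3 miR-29a values lay above the controls for 53.2% and all 3 Let-7b values below them for 62.1%. Most of these genes thus differed on the miR-29a side, on the Let-7b side or on both. For 98 lower and 123 higher genes neither group lay wholly outside the controls. Control values are given below to place single genes.

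**Figure D1:**
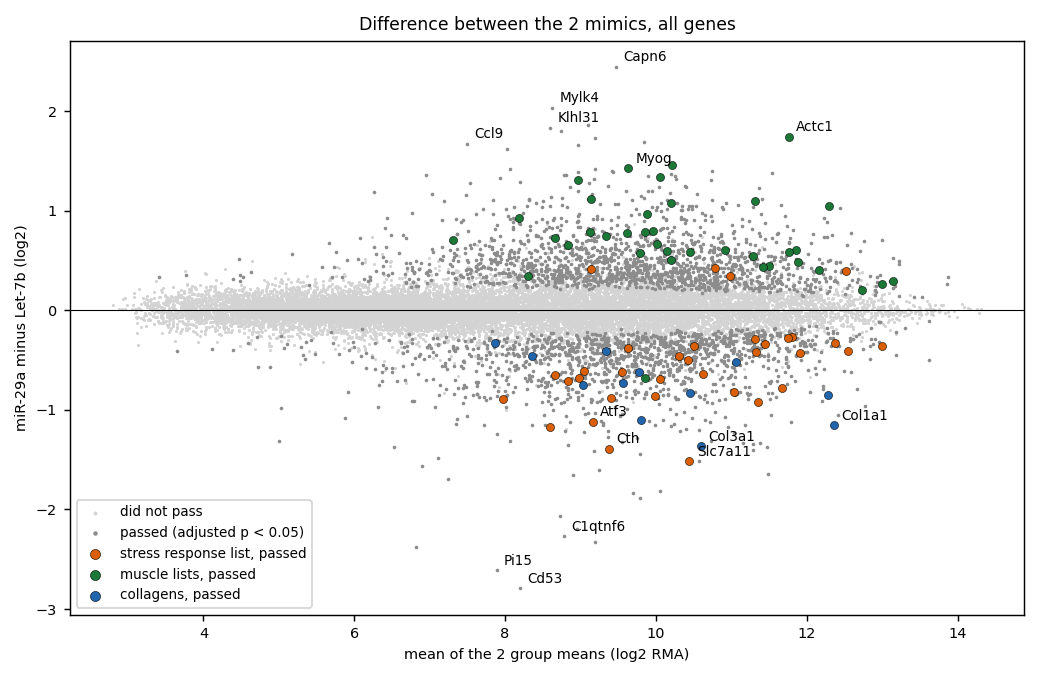
Log2 difference of every gene, miR-29a minus Let-7b, against its mean log2 level over the 6 arrays, with genes that did not pass in light grey, those that passed in darker grey, and passing members of the stress response, muscle and collagen lists in orange, green and blue. Differences run from −2.79 for Cd53 to 2.44 for Capn6, and the cloud is centred near 0.

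Genes with the largest decreases in miR-29a cells included surface and secreted proteins. Cd53, a tetraspanin best known from leukocytes, read 6.73, 6.64 and 7.04 in miR-29a cells and 8.95, 9.73 and 10.11 in Let-7b cells, a 6.93-fold lower level (log2 difference −2.79 ± 0.29 SE, adjusted p 9.52e-07). Its AllStar values, 7.26 to 7.52, lay between the groups. The miR-29a values of Cd53 were close to 6.67, which limits this fold. Thbd, thrombomodulin of the anticoagulant pathway, read 7.71, 7.47 and 7.91 in miR-29a cells and 9.48, 9.62 and 10.17 in Let-7b cells, 4.18-fold lower. Aldh3a1, an aldehyde dehydrogenase, was 4.57-fold lower and Car6, a secreted carbonic anhydrase, 3.69-fold lower. Prl2c5, one of a family of near-identical prolactin-like genes whose probes may not tell the copies apart, was 5.03-fold lower. Pi15, Atp6v0d2 and Ptpn22 also passed, with log2 differences of −2.61, −2.38 and −1.70, but their miR-29a means were under 6.67 and no fold is given. Atp6v0d2 encodes a subunit of the proton pump of acid compartments and Ptpn22 a tyrosine phosphatase.

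Other leading decreases had all 3 miR-29a values below the controls and Let-7b values within or above the control range. C1qtnf6, a secreted C1q and TNF related protein, read 8.07, 7.64 and 7.23 in miR-29a cells against 9.62, 10.05 and 10.07 in Let-7b cells, 4.81-fold lower (−2.27 ± 0.15, adjusted p 4.55e-09). Its controls, 9.48 to 9.64, were close to the Let-7b values and far above the miR-29a values. Kdm7a, a histone demethylase, read 9.11, 9.37 and 8.97 in miR-29a cells against 10.68, 11.03 and 11.18 in Let-7b cells, 3.52-fold lower. Its controls of 9.84 to 10.10 lay between. Gxylt2, a xylosyltransferase, was 3.56-fold lower, and Sh3pxd2a, the scaffold TKS5 of matrix-degrading podosomes, 3.15-fold lower.

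Among the 12 largest increases, several are genes of striated muscle. Capn6, a calpain without protease activity, read 10.60, 10.92 and 10.56 in miR-29a cells and 8.17, 8.50 and 8.08 in Let-7b cells, 5.44-fold higher (2.44 ± 0.12, adjusted p 1.47e-10). Its controls, 10.10 to 10.40, were near the miR-29a values and far above those of Let-7b. Mylk4, a myosin light chain kinase family member, was 4.09-fold higher, Klhl31, a kelch protein of skeletal muscle, 3.56-fold, the cardiac actin Actc1 3.34-fold and the slow troponin Tnnt1 2.75-fold. Map3k7cl read 9.72, 10.11 and 10.26 in miR-29a cells against 7.94, 8.47 and 8.10 in Let-7b cells, 3.64-fold higher, with controls of 8.41 to 8.51. The others were Tspan18 (3.47-fold), Cmah (3.32-fold), Tmem198b (3.23-fold), Glipr1 (3.15-fold) and Edn1, which encodes the peptide endothelin-1 (3.07-fold). Ccl9, a chemokine, had a log2 difference of 1.67 with Let-7b levels at the level of unlisted probe sets.

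Of 65 measured targets of miR-29 outside the matrix lists, 33 were lower in miR-29a cells and 1 was higher. The shares were 50.8% and 1.54%, against 6.9% and 8.22% of all genes. The median log2 difference was −0.25 against 0.01 over all genes. Of the 33, 25 had all 3 miR-29a values below the controls and 15 had all 3 Let-7b values above them. Over all genes that were lower these shares were 58.0% and 53.2%. Hbp1, a repressor of cell cycle genes, read 10.06, 9.95 and 9.78 in miR-29a cells and 10.99, 10.99 and 11.06 in Let-7b cells, 2.11-fold lower (−1.08 ± 0.11, adjusted p 4.31e-07). Hdac4, a histone deacetylase that binds MEF2 factors, read 9.75, 9.56 and 9.46 against 10.45, 10.49 and 10.46 in Let-7b cells. For both genes the controls fell between 2 groups that did not overlap.

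The DNA methylation enzymes belong to the same target list. Dnmt3a, a de novo DNA methyltransferase, read 8.04, 8.04 and 8.07 in miR-29a cells and 8.61, 8.81 and 9.02 in Let-7b cells, 1.70-fold lower (adjusted p 6.68e-05). Dnmt3b, its partner enzyme, was 1.27-fold lower. The TET enzymes, which oxidise methylcytosine and were picked for mention after their values were seen, were also lower. Tet2 had a log2 difference of −0.77 ± 0.09, Tet1 of −0.68 ± 0.13 and Tet3, which is on both target lists, of −0.70 ± 0.12. Further targets that were lower are Ifi30, a lysosomal thiol reductase (2.52-fold), Atad2b (1.86-fold), Bace1, the beta-secretase (1.85-fold), and Ctnnbip1, an inhibitor of beta-catenin (1.85-fold). Dicer1, the enzyme that cuts microRNA precursors and a target of both families, was the one that was higher. It read 10.73, 10.79 and 10.94 in miR-29a cells and 10.09, 9.92 and 9.82 in Let-7b cells, with controls of 10.72 to 10.92 beside the miR-29a values.

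**Figure D2:**
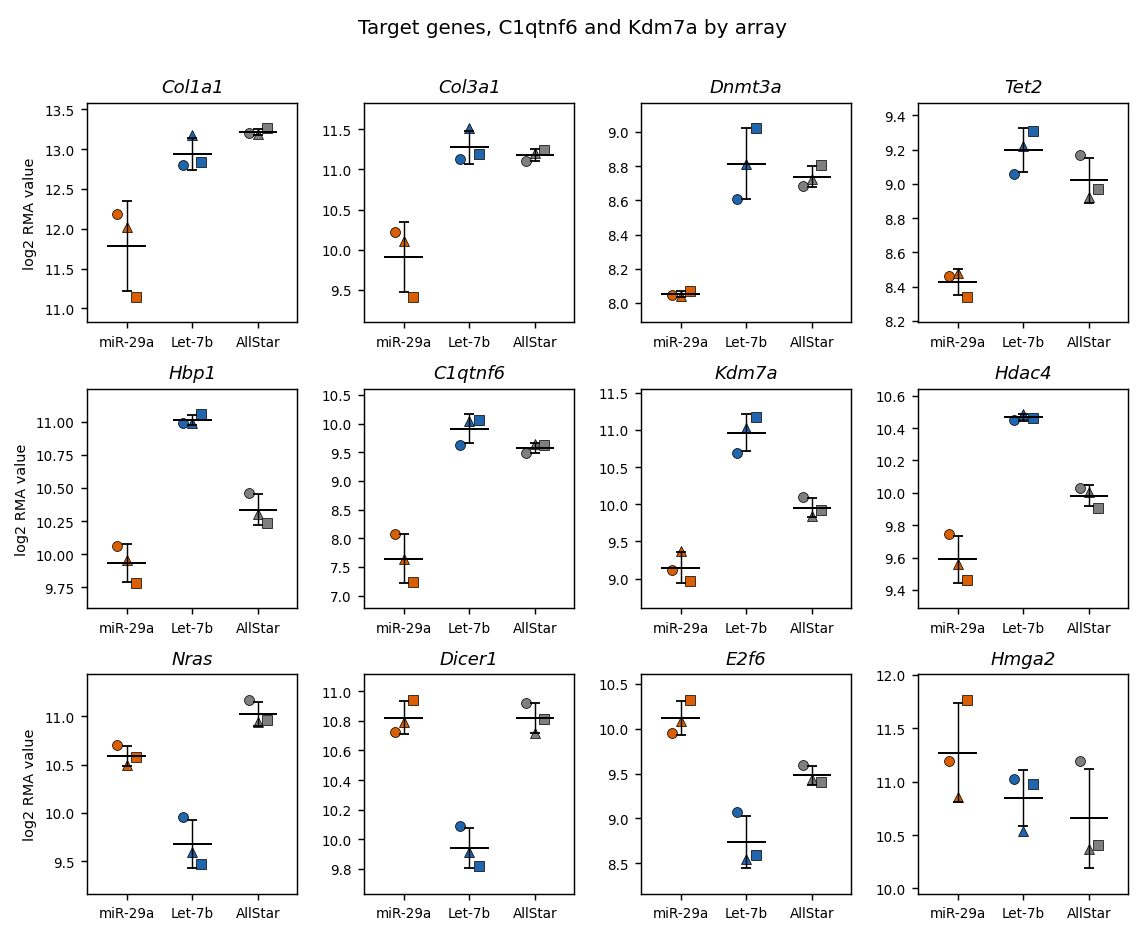
Log2 level of 10 listed miR-29 or let-7 targets and of C1qtnf6 and Kdm7a on each array (circle, triangle and square are replicates 1, 2 and 3), with the mean as a bar and the SD as error bars, for miR-29a, Let-7b and AllStar. Col3a1, Dnmt3a and C1qtnf6 lie below the controls on all 3 miR-29a arrays and not on all 3 Let-7b arrays, Col1a1 lies below them in both groups, and Nras, Dicer1 and E2f6 are lowest in Let-7b cells.

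Of 34 collagen genes, 12 were lower in miR-29a cells and 0 higher (limma; 1 was higher at an unadjusted p under 0.05, and 1 with the replicate number as a block), and 22 did not pass, so that the median of the list was −0.06. The 12 made up 35.3% of the list, against 6.9% of all genes. All 12 had their 3 miR-29a values below the controls, and none had its 3 Let-7b values above them. Over all genes that were lower these shares were 58.0% and 53.2%. Col3a1, a fibrillar collagen, read 10.22, 10.11 and 9.41 in miR-29a cells and 11.13, 11.51 and 11.19 in Let-7b cells, 2.58-fold lower (−1.37 ± 0.15, adjusted p 2.46e-06). Col1a1 read 12.18, 12.03 and 11.14 against 12.80, 13.17 and 12.84 in Let-7b cells, 2.22-fold lower, and both groups lay below its controls of 13.19 to 13.26. In both genes replicate 3 was the lowest of the miR-29a arrays. Col5a2 was 2.14-fold lower, Col1a2 1.80-fold, Col8a1 1.78-fold, Col4a1 1.68-fold, Col6a1 1.66-fold and Col5a1 1.54-fold.

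Of 48 other matrix genes, 12 were lower (25.0%, against 6.9% of all genes) and 4 higher (8.33%, against 8.22%). Adam19, a membrane metalloproteinase, read 10.04, 9.86 and 9.57 in miR-29a cells and 11.30, 11.38 and 11.32 in Let-7b cells, 2.85-fold lower (adjusted p 6.54e-09). Its controls, 10.46 to 10.63, lay between. Mmp2, a gelatinase, was 2.10-fold lower, the basement membrane genes Nid1 1.95-fold and Lamc1 1.90-fold, the collagen chaperone Serpinh1 1.63-fold, and the matricellular Sparc 1.42-fold. The count of 4 higher fell to 1 without miR-29a replicate 2, without Let-7b replicate 1 or without Let-7b replicate 3. Among the fibroblast markers, Pdgfra, a growth factor receptor, was 2.05-fold lower in miR-29a cells. It read 8.47, 8.68 and 8.45 there, 9.38, 9.51 and 9.82 in Let-7b cells and 8.25 to 8.44 in the controls. Both groups thus lay above the controls, Let-7b by more. Of the 6 fibroblast markers 2 were lower and 0 higher (limma; 0 also at an unadjusted p under 0.05), and their part in the matrix result was not tested. The 2 made up 33.3% of these markers, against 6.9% of all genes. The other marker that was lower, Cd34 (1.79-fold), lost its call without miR-29a replicate 2 (adjusted p 0.0906), miR-29a replicate 3 (0.0716), Let-7b replicate 1 (0.106) or Let-7b replicate 3 (0.0669). Those fits had no block, and with the replicate number as a block the adjusted p for Cd34 was 3.03e-07.

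Of 73 measured let-7 targets, 26 were higher in miR-29a cells, 5 were lower (8 with the replicate number as a block) and 42 did not pass, with a median of 0.15. The shares were 35.6% higher and 6.85% lower, against 8.22% and 6.9% of all genes. Of the 26, 22 had all 3 Let-7b values below the controls and 9 had all 3 miR-29a values above them. Over all genes that were higher these shares were 62.1% and 53.2%. E2f6, a repressor of the E2F family, read 9.96, 10.08 and 10.32 in miR-29a cells and 9.08, 8.54 and 8.59 in Let-7b cells, 2.61-fold higher (1.39 ± 0.14, adjusted p 8.85e-07). Nras, the small GTPase, read 10.70, 10.49 and 10.58 against 9.95, 9.59 and 9.47 in Let-7b cells, 1.89-fold higher. In Nras both groups lay below the controls of 10.94 to 11.17. Dusp9, a phosphatase of MAP kinases, was 2.08-fold higher, Nme4 2.06-fold, Gatm of creatine synthesis 1.95-fold, Pbx2 1.95-fold and Cdc34, a ubiquitin-conjugating enzyme, 1.87-fold.

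Cdk6, a cell cycle kinase on both target lists, read 10.48, 10.17 and 10.16 in miR-29a cells and 11.17, 11.26 and 11.19 in Let-7b cells, 1.91-fold lower, with controls of 11.67 to 11.71 above both. Hmga2, a chromatin protein and a well known let-7 target, read 11.19, 10.86 and 11.77 in miR-29a cells and 11.02, 10.54 and 10.98 in Let-7b cells. These values overlapped, and the log2 difference of 0.43 ± 0.33 had an adjusted p of 0.547. With the replicate number as a block the adjusted p for Hmga2 was 0.0434.

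**Figure D3:**
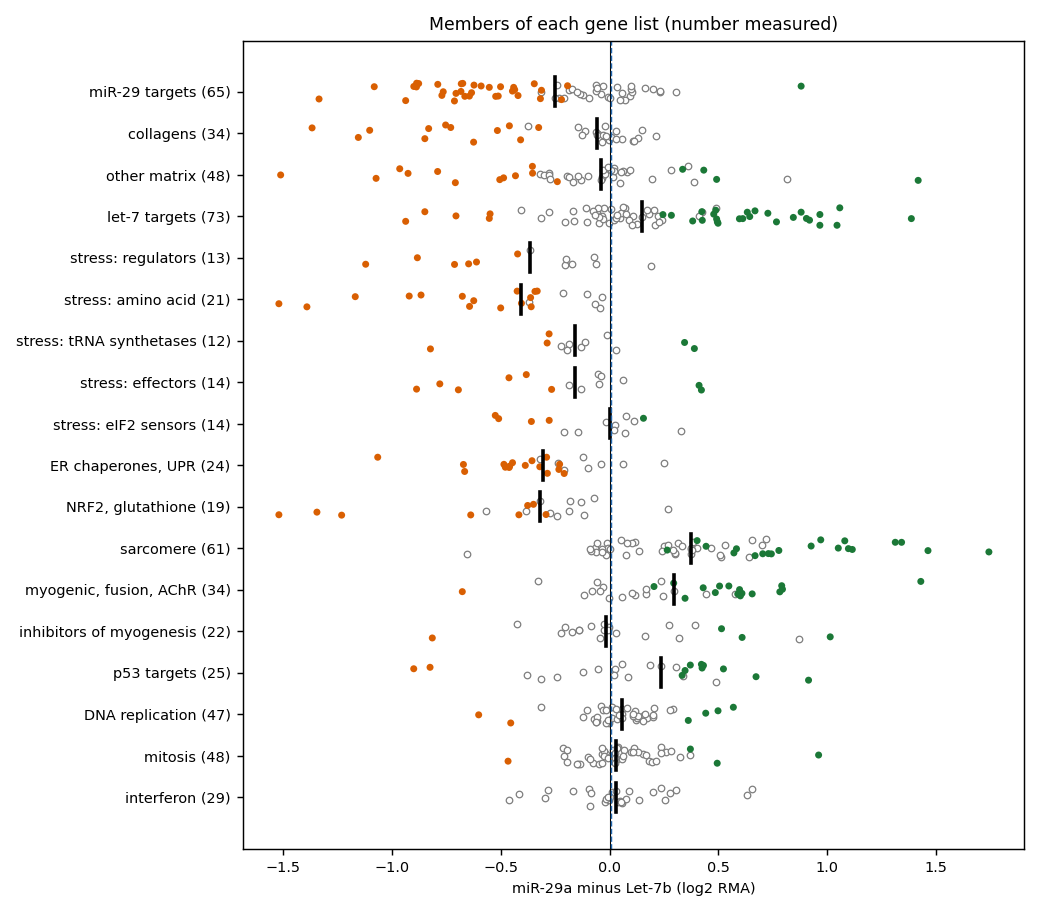
Log2 difference, miR-29a minus Let-7b, of each measured member of the gene lists; filled points passed the test (orange lower, green higher), open points did not, the black bar is the list median and the blue dashed line the median of all genes. Stress lists lean below 0 and the muscle lists above 0.

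Of 60 measured genes of the integrated stress response in 4 role lists (regulators, amino acid genes, tRNA synthetases and effectors), 30 were lower in miR-29a cells and 4 higher. The shares were 50.0% and 6.67%, against 6.9% and 8.22% of all genes, and the median difference was −0.28. The medians of the 3 pairs of arrays with the same number were −0.26, −0.38 and −0.27. Of the 30, 21 had all 3 miR-29a values below the controls, 16 had all 3 Let-7b values above them and 7 had both. Over all genes that were lower, the first 2 shares were 58.0% and 53.2%, and 253 of 1375 had both. The members thus differed in which mimic stood apart from the controls, as did lower genes at large, and single genes are given below.

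Among the regulators, 6 of 13 were lower (46.2%, against 6.9% of all genes) and 0 higher by limma. At an unadjusted p under 0.05 1 was higher, and 1 with the replicate number as a block. Atf4 itself read 9.95, 9.76 and 9.87 in miR-29a cells and 10.20, 9.88 and 10.02 in Let-7b cells. Those values overlapped, and the log2 difference of −0.17 ± 0.08 did not pass (adjusted p 0.209). ATF4 is controlled largely by translation, which arrays do not measure. Ddit3, which encodes CHOP, read 9.03, 8.75 and 9.11 in miR-29a cells and 9.80, 9.58 and 10.16 in Let-7b cells, 1.84-fold lower (−0.88 ± 0.15, adjusted p 0.000202). Atf3, a stress-induced repressor, read 8.73, 8.23 and 8.85 against 9.84, 9.30 and 10.03 in Let-7b cells, 2.17-fold lower (adjusted p 0.000807). For Ddit3 the controls were 8.96 to 9.00 and for Atf3 8.44 to 8.74, so that in both genes Let-7b stood apart and miR-29a lay at the control level.

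Ppp1r15a, the GADD34 subunit that brings the phosphatase to eIF2 alpha, was 1.57-fold lower, Cebpb, a partner of ATF4, 1.53-fold and Nupr1, a stress-induced chromatin protein, 1.34-fold. All 3 Let-7b values lay above the controls for these genes too. Trib3, a pseudokinase that restrains ATF4, read 8.53, 8.35 and 8.54 in miR-29a cells and 9.21, 9.14 and 9.20 in Let-7b cells, 1.64-fold lower (adjusted p 0.000113). Its controls were 9.11 to 9.58, so for Trib3 it was miR-29a that stood apart.

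Amino acid genes made up 15 of the 30 members that were lower, out of 21 measured, with 0 higher (limma; 0 also at an unadjusted p under 0.05 and 0 with the replicate number as a block) and a median of −0.40. The 15 made up 71.4% of this list, against 6.9% of all genes. Of the 15, 14 had all 3 miR-29a values below the controls and 6 had all 3 Let-7b values above them. Over all genes that were lower these shares were 58.0% and 53.2%. Slc7a11, the cystine and glutamate exchanger, read 9.57, 9.49 and 9.99 in miR-29a cells and 11.28, 10.88 and 11.45 in Let-7b cells, 2.86-fold lower (−1.52 ± 0.18, adjusted p 3.08e-06). Its controls of 10.07 to 10.19 lay between groups that did not overlap. Cth, which makes cysteine, read 8.81, 8.69 and 8.55 in miR-29a cells and 9.94, 10.19 and 10.09 in Let-7b cells, 2.62-fold lower (adjusted p 2.03e-08). Slc7a3, a cationic amino acid carrier, read 8.04, 8.22 and 7.77 against 8.78, 9.44 and 9.31 in Let-7b cells, 2.25-fold lower. Cth and Slc7a3 had Let-7b values around or slightly above their controls and miR-29a values below them.

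The glycine carrier Slc6a9 was 1.89-fold lower in miR-29a cells, the cationic carrier Slc7a1 1.82-fold, the serine synthesis enzyme Psph 1.60-fold and the mitochondrial folate enzyme Aldh1l2 1.56-fold. Asns, asparagine synthetase and a standard readout of ATF4, read 12.25, 12.17 and 12.19 in miR-29a cells and 12.52, 12.65 and 12.43 in Let-7b cells, 1.26-fold lower (adjusted p 0.00329). Psat1, of serine synthesis, was 1.34-fold lower (adjusted p 0.0103). In both genes the miR-29a values lay below all controls. For Psat1 the Let-7b values, 12.10 to 12.14, also lay below all controls, which were 12.19 to 12.25. For Asns in Let-7b cells, 12.65 lay in the control range of 12.57 to 12.79, and 12.52 and 12.43 lay below it. Phgdh, the first enzyme of serine synthesis, read 10.38, 10.40 and 10.55 in miR-29a cells and 10.39, 10.60 and 10.65 in Let-7b cells, an overlap in which the difference of −0.10 ± 0.08 did not pass (adjusted p 0.568).

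Genes of tRNA charging and export were mixed. Of 12 measured, 3 were lower, 6 with the replicate number as a block, and 2 higher. The 3 and the 2 made up 25.0% and 16.7% of this short list, against 6.9% and 8.22% of all genes. Xpot, the tRNA exporter, read 10.88, 10.42 and 10.56 in miR-29a cells and 11.48, 11.38 and 11.46 in Let-7b cells, 1.77-fold lower. Sars, seryl-tRNA synthetase, was 1.21-fold lower. Iars, isoleucyl-tRNA synthetase, read 12.69, 12.71 and 12.74 against 12.40, 12.35 and 12.23 in Let-7b cells, 1.31-fold higher (adjusted p 1.09e-05), and Mars1, methionyl-tRNA synthetase, was 1.27-fold higher. In both of these the Let-7b values lay below all controls, and the miR-29a values lay just below them.

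Among stress effectors, 6 of 14 were lower and 2 higher. The shares were 42.9% and 14.3% of this short list, against 6.9% and 8.22% of all genes. Herpud1, a component of endoplasmic reticulum protein degradation, read 11.42, 11.12 and 11.30 in miR-29a cells and 12.05, 11.92 and 12.21 in Let-7b cells, 1.72-fold lower (adjusted p 9.20e-07). Chac1, which degrades glutathione, read 9.74, 9.59 and 9.78 against 10.39, 10.39 and 10.41 in Let-7b cells, 1.62-fold lower (adjusted p 0.000424). Herpud1 had controls of 11.43 to 11.53, below the Let-7b values and just above the miR-29a values, and Chac1 had controls of 10.32 to 10.66, above the miR-29a values and around those of Let-7b. Vldlr, a lipoprotein receptor, was 1.85-fold lower, Ddit4, an inhibitor of mTORC1, 1.38-fold and Lonp1, a mitochondrial protease, 1.30-fold. The 2 that were higher were Stc2, a secreted glycoprotein (0.41), and the death receptor gene Tnfrsf10b (0.42). Leaving out Let-7b replicate 2 ended both calls (adjusted p 0.0998 and 0.137). The Tnfrsf10b call also ended without miR-29a replicate 1 (0.0763), miR-29a replicate 3 (0.124) or Let-7b replicate 3 (0.07). Sesn2, a sestrin, read 9.75, 9.71 and 10.02 in miR-29a cells and 9.76, 9.90 and 9.98 in Let-7b cells, with no difference beyond the spread (−0.05 ± 0.13, adjusted p 0.915).

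**Figure D4:**
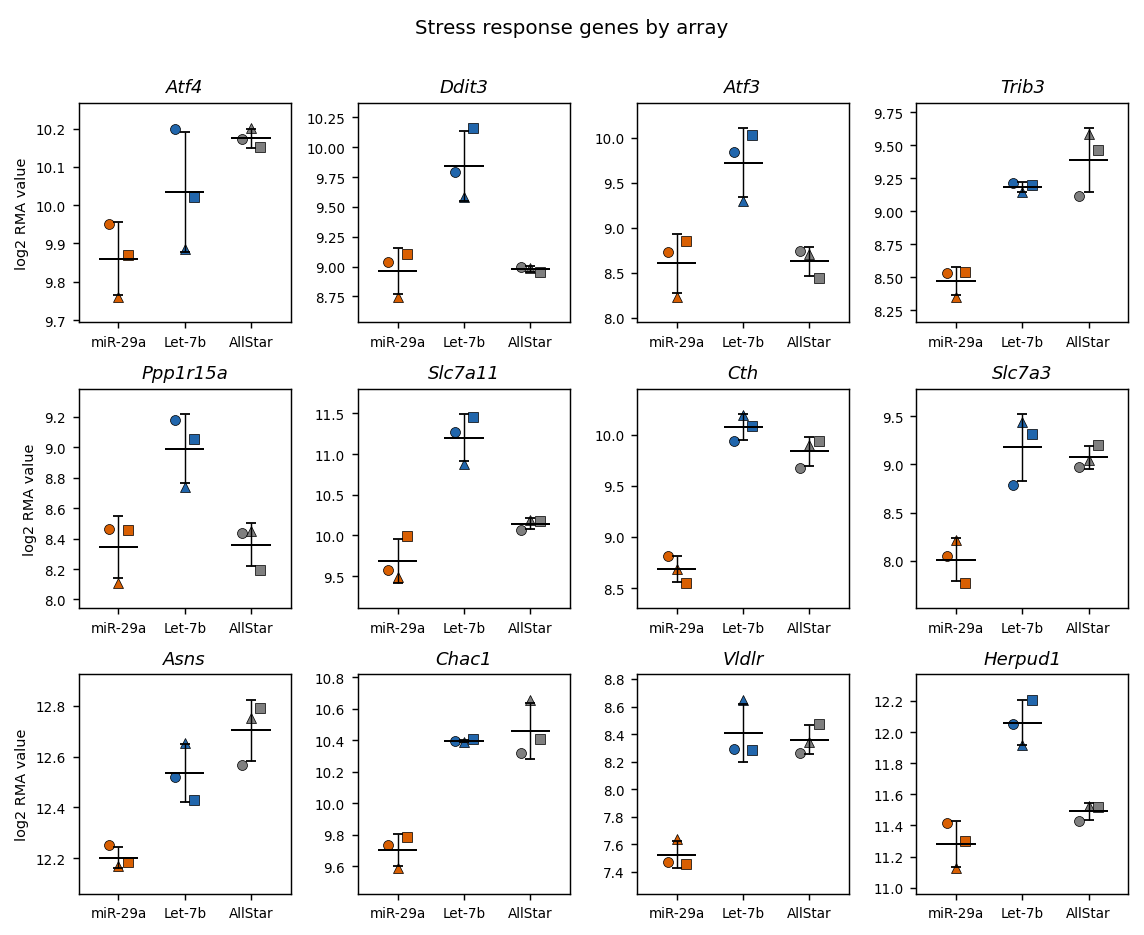
Log2 level of 12 stress genes on each array (circle, triangle and square are replicates 1, 2 and 3), with the mean as a bar and the SD as error bars, for miR-29a, Let-7b and AllStar. In Ddit3 and Atf3 the Let-7b arrays stand above the other groups, and in Trib3 and Cth the miR-29a arrays stand below them.

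ATF4 and CHOP bind, with C/EBP factors, to a composite element that was searched here as TGATGNAA on both strands, from 250 bases before to 50 after each RefSeq gene start (GRCm38.p6). The element was present in a promoter of 1219 of 27025 genes (4.51%) and of 16 of 47 stress response genes with a promoter in the table. Among these, it was in 9 of 25 genes that were lower in miR-29a cells (36.0%) and in 7 of 22 that were not (31.8%). These 2 shares are close to each other, and a match is a description of letters, not a site in use. Promoter stretches of 4 members are shown, chosen for a match within the printed window and a clear difference, with the element in capitals and each strand read in the direction of the gene. They lie at chr3:50443626-50443725 (minus) for Slc7a11, chr1:191183390-191183489 (minus) for Atf3, chr2:119351003-119351102 (plus) for Chac1 and chr8:94386271-94386370 (plus) for Herpud1.
Slc7a11: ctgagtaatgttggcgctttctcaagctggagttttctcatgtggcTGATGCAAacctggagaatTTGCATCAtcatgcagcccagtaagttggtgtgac
Atf3: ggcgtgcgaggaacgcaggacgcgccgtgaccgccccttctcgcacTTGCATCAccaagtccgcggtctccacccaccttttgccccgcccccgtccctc
Chac1: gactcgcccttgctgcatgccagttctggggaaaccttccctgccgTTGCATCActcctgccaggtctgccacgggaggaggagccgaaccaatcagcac
Herpud1: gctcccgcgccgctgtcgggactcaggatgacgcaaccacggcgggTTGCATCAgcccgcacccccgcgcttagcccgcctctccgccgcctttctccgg
Slc7a11, the member with the largest decrease, carries the element once on each strand, starting 66 and 47 bases before the gene start. Atf3, Chac1 and Herpud1 carry it once, starting 110, 193 and 112 bases before it.

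Upstream of ATF4, 4 of 14 measured genes of the eIF2 machinery were lower (28.6%, against 6.9% of all genes). In the other direction 1 was higher (7.14%, against 8.22%), and the median was 0.00. Dnajc3, a chaperone that inhibits eIF2 alpha kinases, read 10.70, 10.77 and 10.81 in miR-29a cells and 11.33, 11.19 and 11.34 in Let-7b cells, 1.44-fold lower (adjusted p 4.93e-05). Eif2b1, a subunit of the exchange factor eIF2B, was 1.42-fold lower. The count of 4 fell to 2 without miR-29a replicate 3. The 1 higher call, for the eIF2 subunit gene Eif2s3x, ended without miR-29a replicate 3 (adjusted p 0.114), Let-7b replicate 1 (0.052) or Let-7b replicate 3 (0.0535), with 6 arrays only (0.0634), after quantile normalization (0.0554) or centring (0.0551), and with no variance trend (0.0859).

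Of 24 measured endoplasmic reticulum chaperones and genes of the ATF6 and XBP1 branches of the unfolded protein response, 16 were lower in miR-29a cells and 0 higher (limma; 1 was higher at an unadjusted p under 0.05, and 0 with the replicate number as a block), and the median was −0.30. Hspa5, the chaperone BiP, read 12.90, 12.97 and 13.02 in miR-29a cells and 13.37, 13.36 and 13.50 in Let-7b cells, 1.36-fold lower (−0.45 ± 0.05, adjusted p 2.51e-06). Its controls of 13.04 to 13.06 were close to the miR-29a values and below those of Let-7b. Ero1b, an oxidase of disulfide formation, was 2.09-fold lower, the cochaperones Sdf2l1 and Dnajb9 1.59-fold each, Creld2 1.40-fold, the sensor gene Ern1 1.38-fold and Edem1, of protein degradation, 1.37-fold. The 16 made up 66.7% of the list, against 6.9% of all genes. Of the 16, 13 had all 3 Let-7b values above the controls and 6 had all 3 miR-29a values below them. Over all genes that were lower these shares were 53.2% and 58.0%. None of the 21 genes of this list with an available promoter held the element TGATGNAA there.

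Of 61 measured genes of the sarcomere and of excitation-contraction coupling, 20 were higher in miR-29a cells and 0 lower (limma; 0 also at an unadjusted p under 0.05, and 1 with the replicate number as a block), against 8.22% and 6.9% of all genes. The median log2 difference was 0.37, and 0.25 without Let-7b replicate 1. Of the 20, 15 had all 3 miR-29a values above the controls and 11 had all 3 Let-7b values below them. Over all genes that were higher these shares were 53.2% and 62.1%. On the pair of unreplicated arrays of untransfected cells, all 20 were higher in the myotube array than in the myoblast array. Among all genes that were higher in miR-29a cells, 58.5% were. Only the sign was counted, and the difference for Actc1 was 0.0058. The share over all 61 genes was not counted. As contractile genes belong to myotubes, this count is a description and not a test.

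Among the members of this list that passed, Actc1 had the largest difference, followed by Tnnt1 and Myh3. The 2 actins and the embryonic myosin are given first. Actc1, the cardiac alpha-actin that embryonic and cultured skeletal muscle also makes, read 12.38, 12.81 and 12.72 in miR-29a cells and 10.59, 11.04 and 11.06 in Let-7b cells (1.74 ± 0.16, adjusted p 1.79e-07). Acta1, the skeletal alpha-actin, read 12.56, 12.95 and 12.95 against 11.35, 11.94 and 12.03 in Let-7b cells, 2.07-fold higher (adjusted p 4.23e-05). Myh3, the embryonic myosin heavy chain, read 10.37, 10.86 and 10.94 against 8.97, 9.50 and 9.68 in Let-7b cells, 2.53-fold higher (adjusted p 6.43e-05). In these 3 genes the groups did not overlap, Let-7b lay below all controls, and replicate 1 was the lowest array of each group. Probes of the near-identical actin genes may share signal.

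Tnnt1, slow troponin T, read 10.69, 11.23 and 10.90 in miR-29a cells and 9.00, 9.77 and 9.66 in Let-7b cells (1.46 ± 0.16, adjusted p 1.32e-06). Xirp1, an actin-binding protein of muscle junctions, read 9.50, 9.56 and 9.79 against 8.06, 8.39 and 8.47 in Let-7b cells, 2.48-fold higher. Ldb3, of the Z disc, read 9.69, 9.73 and 9.68 against 8.48, 8.58 and 8.70 in Let-7b cells, 2.16-fold higher. For these 3 genes the controls lay between the groups. Actn3, the fast alpha-actinin, was 2.14-fold higher and Mybph, a myosin-binding protein, 2.11-fold.

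Of the 61 genes of the sarcomere and of excitation-contraction coupling, 41 did not pass. The difference was below 0 for 11 of the 61. Tnnt2, the troponin T of heart and embryonic muscle, read 12.35, 12.71 and 12.56 in miR-29a cells and 12.05, 12.39 and 12.41 in Let-7b cells, which overlap (0.26 ± 0.11, adjusted p 0.12). With the replicate number as a block its adjusted p was 0.0137, and without miR-29a replicate 1 it was 0.0361 with no block. Ckm, the muscle creatine kinase, read 9.74, 10.27 and 9.98 in miR-29a cells against 8.93, 9.40 and 9.33 in Let-7b cells, 1.71-fold higher (adjusted p 0.0117). The call for Ckm ended without miR-29a replicate 2 (adjusted p 0.0771) or Let-7b replicate 1 (0.0734).

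**Figure D5:**
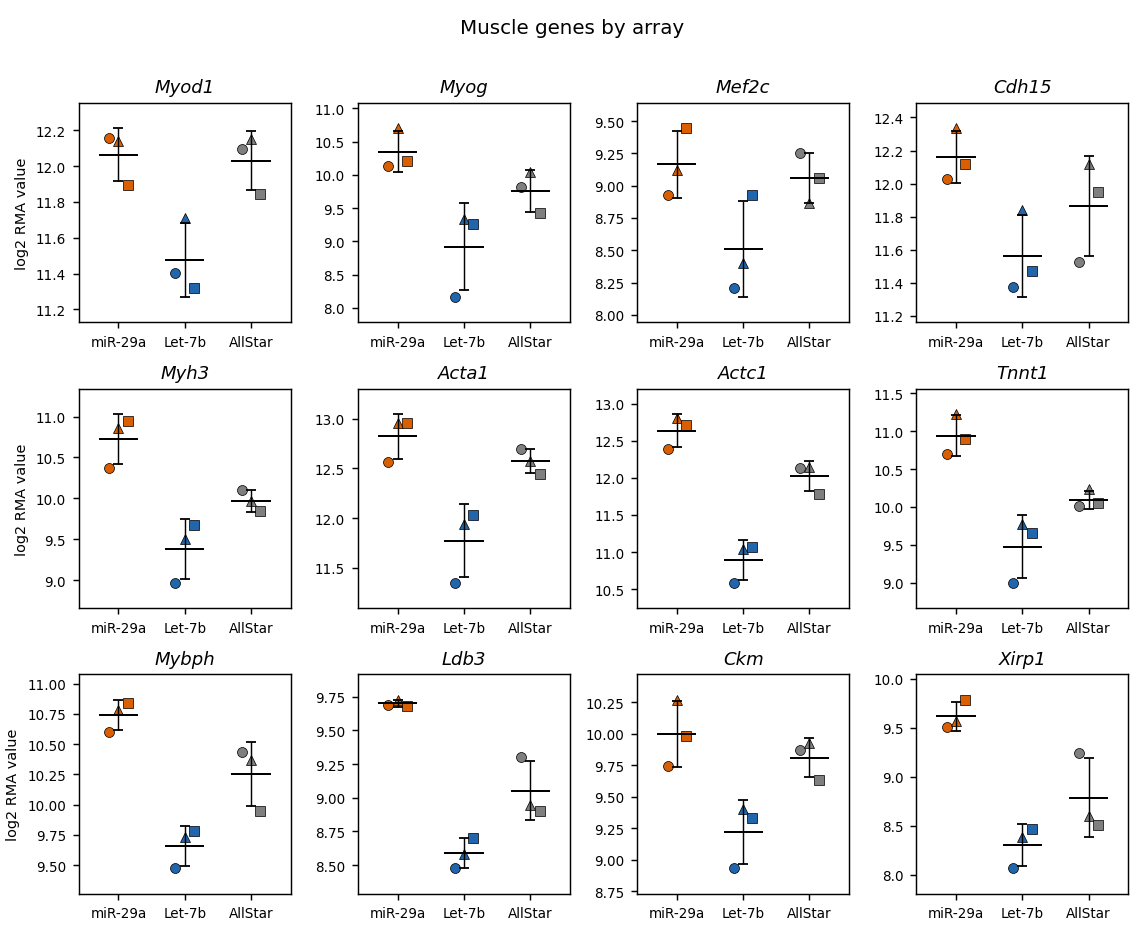
Log2 level of 12 muscle genes on each array (circle, triangle and square are replicates 1, 2 and 3), with the mean as a bar and the SD as error bars, for miR-29a, Let-7b and AllStar. Let-7b is the lowest group in each panel, and Tnnt1, Myh3 and Actc1 have all 3 miR-29a arrays above the controls.

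Myogenic transcription factors, fusion genes and acetylcholine receptor subunits also leaned higher, with 16 of 34 higher, 1 lower and a median of 0.30. The shares were 47.1% and 2.94%, against 8.22% and 6.9% of all genes. Myod1, which commits cells to the muscle lineage, read 12.16, 12.14 and 11.90 in miR-29a cells and 11.40, 11.71 and 11.32 in Let-7b cells, 1.50-fold higher (0.59 ± 0.14, adjusted p 0.00449). Its controls, 11.84 to 12.15, spanned nearly the range of the miR-29a values and lay above those of Let-7b. Myog, which drives terminal differentiation, read 10.14, 10.70 and 10.21 in miR-29a cells and 8.16, 9.34 and 9.26 in Let-7b cells, 2.69-fold higher (1.43 ± 0.28, adjusted p 0.000994). Its controls, 9.43 to 10.05, lay between, above every Let-7b array and below every miR-29a array.

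Myf5, the early myogenic factor, read 10.42, 10.23 and 10.31 in miR-29a cells and 10.28, 10.04 and 10.14 in Let-7b cells, and its difference of 0.17 ± 0.11 did not pass (adjusted p 0.41). Mef2c, a cofactor of Myog, read 8.93, 9.12 and 9.44 against 8.21, 8.40 and 8.92 in Let-7b cells, 1.57-fold higher at an adjusted p of 0.0451. The call for Mef2c ended without miR-29a replicate 2 (adjusted p 0.0915), miR-29a replicate 3 (0.219), Let-7b replicate 1 (0.208) or Let-7b replicate 2 (0.139). The RNA-binding proteins Rbm38 and Rbm24, which act on transcripts of differentiating muscle, were 1.73-fold and 1.72-fold higher, and Dysf, a membrane repair protein, 1.73-fold. The 1 gene that was lower was Eya1, a transcriptional cofactor of early muscle development (1.60-fold).

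Of 10 markers of skeletal myoblasts, 0 were lower in miR-29a cells (limma, and 0 also at an unadjusted p under 0.05 or with the replicate number as a block). The markers leaned in the same direction as the muscle genes, with 6 of 10 higher and a median of 0.23. These 6 made up 60.0% of the markers, against 8.22% of all genes. The 6 were Myod1, Cdh15, Itga7, Des, Ncam1 and Chrna1, of which Myod1 and Cdh15 are described or drawn with the muscle genes. Cdh15, M-cadherin, was 1.52-fold higher, and its call ended without miR-29a replicate 2 (adjusted p 0.118), miR-29a replicate 3 (0.0576), Let-7b replicate 1 (0.114) or Let-7b replicate 3 (0.0971), and with a robust variance prior (0.0513). Those fits had no block, and with the replicate number as a block the adjusted p for Cdh15 was 1.41e-05. Des, Ncam1 and Chrna1 were 1.23-fold, 1.19-fold and 1.15-fold higher, and 3 of the 10 markers had a difference below 0. The median level over the 10 markers was 11.9 in miR-29a cells and 11.3 in Let-7b cells. These 2 levels are not compared marker by marker, as the median difference of 0.23 is. The part of the markers in the muscle result was not tested.

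Over both muscle lists, 36 of 95 genes were higher in miR-29a cells, 1 was lower and 58 did not pass. The higher and lower shares were 37.9% and 1.05%, against 8.22% and 6.9% of all genes. Of the 36, 25 had all 3 miR-29a values above the controls and 17 had all 3 Let-7b values below them. Over all genes that were higher these shares were 53.2% and 62.1%. By sign alone, 35 of the 36 were higher in the single myotube array, which is again a description. Of 22 genes that restrain myogenesis, 3 were higher and 1 was lower (7 higher and 2 lower with the replicate number as a block). The shares were 13.6% and 4.55%, against 8.22% and 6.9% of all genes, and the median was −0.02. Id3, which binds and blocks E proteins, read 11.25, 11.23 and 11.25 in miR-29a cells and 10.61, 10.75 and 10.83 in Let-7b cells, 1.43-fold higher. Bhlhe41, a basic helix-loop-helix repressor, was 1.52-fold higher. Hey1, a repressor under Notch, was 2.02-fold higher, and its call ended without miR-29a replicate 2 (adjusted p 0.113), Let-7b replicate 1 (0.103) or Let-7b replicate 3 (0.0722). Twist2, which represses myogenic factors, was 1.76-fold lower (adjusted p 0.0099), and its call ended without miR-29a replicate 2 (0.0709) or Let-7b replicate 1 (0.0576). Those fits had no block, and with the replicate number as a block the adjusted p was 4.16e-06 for Hey1 and 9.9e-08 for Twist2.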

How the data were processed

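The deposited log2 values came from RMA in Affymetrix Expression Console 1.1, per the submitters' processing notes; a genome build is not given in the sources used here. They were used uncentred and unchanged. Of 35556 probe sets, 21789 had 1 symbol, 1621 several and 12146 no listed gene; each of 19938 genes took its 1-symbol probe set with the highest mean (999 had several). limma 3.58.1 (R 4.3.3) was fitted to 21 mimic arrays in 7 groups (14 residual degrees of freedom, trended variances, no filter on dim genes). Each AllStar value averages an array with its technical repeat. The transfections are labelled as independent experiments. Same-numbered miR-29a and Let-7b residuals correlated at 0.40, 0.44 and 0.31, so the replicate number was also tried as a block. In simulated data, 69% of changes of 0.5 and 100% of changes of 1 were recovered among 200 planted in 19938 genes, with 8 unchanged genes called. The simulated noise was independent between arrays, without the shared replicate number, and far fewer genes changed than were called here. These rates therefore check the code and do not give the error rates of the real comparison.

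Named are the 12 largest differences in each direction among genes that passed with groups apart, up to 8 passing members of each list, and a set of standard stress, muscle and target genes; of these Igf2bp2 had no probe set of its own. The comparison and the lists were chosen with earlier results of these data known, and target lists came from the literature. No fold is given where the lower mean is under 6.67. The number of arrays limits precision. Alternatives changed the arrays, filter, scaling, variance prior, probe set rule and block.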

Additional observations from a re-analysis of the deposited data

How the results depend on the processing

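Of 158 named genes, 152 passed, and 123 of these passed under each of the 17 alternatives that kept the gene; the other 29 lost the call in at least 1. Leaving out 1 array at a time gave 2139 to 2858 genes (1173 to 1508 higher and 966 to 1350 lower in miR-29a cells), 27 to 32 stress response genes lower and 28 to 43 muscle genes higher. With the replicate number as a block there were 4038 genes (2178 higher, 1860 lower), 37 stress response genes lower and 47 muscle genes higher. Among the named genes the block changed only the calls of Hmga2 and Tnnt2, so each named gene that passed also passed with the block. The fits that left out 1 array had no block. The block fitted to the 6 arrays alone gave 5018 genes (2692 higher, 2326 lower) and 65 muscle genes higher; the cause of the gain was not tested. The Sesn2 difference, which did not pass, was −0.15 without miR-29a replicate 3 and turned to 0.0086 without miR-29a replicate 2; that cause too was not tested. Of all calls, 54.4% were higher in miR-29a cells, 50.2% after a further quantile normalization and 49.1% after centring each array. Signal near the level of unlisted probe sets limits Pi15, Atp6v0d2, Ptpn22 and Ccl9. It also limits the folds of Cd53, Dnmt3b and Ero1b, whose miR-29a means were 6.80, 6.94 and 6.96.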

Other observations

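Of 19 measured antioxidant genes under NRF2, 8 were lower in miR-29a cells and 0 higher (limma; 1 was higher at an unadjusted p under 0.05, and 1 with the replicate number as a block), with a median of −0.32. The 8 made up 42.1% of the list, against 6.9% of all genes, and without Let-7b replicate 3 the count was 5. Nqo1, a quinone reductase, read 10.76, 10.24 and 10.84 in miR-29a cells and 11.94, 11.59 and 12.33 in Let-7b cells, 2.54-fold lower (−1.34 ± 0.32, adjusted p 0.0047). Srxn1, sulfiredoxin, read 10.52, 10.12 and 10.64 against 11.71, 11.34 and 11.90 in Let-7b cells, 2.35-fold lower (adjusted p 4.68e-05). All 8 had their 3 Let-7b values above the controls, beside 53.2% of all genes that were lower. Nfe2l2, which encodes NRF2, was 1.33-fold lower, and Gss, glutathione synthetase, 1.56-fold. Slc7a11, described above with the amino acid genes, is also on this list.

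Known p53 targets leaned higher, with 9 of 25 higher and 2 lower in miR-29a cells and a median of 0.24. The shares were 36.0% and 8.0%, against 8.22% and 6.9% of all genes. Pidd1, a death domain protein, read 9.07, 8.70 and 9.07 in miR-29a cells and 8.25, 7.89 and 7.96 in Let-7b cells, 1.88-fold higher (adjusted p 5.59e-05). Gadd45b was 1.59-fold higher, Trp53inp1 1.44-fold and Phlda3 1.34-fold, while Ei24 was 1.77-fold lower and Plk3 1.86-fold lower.

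Proliferation genes showed little shift. Of 47 replication genes 4 were higher and 2 lower, with a median of 0.06. Of 48 mitosis genes 3 were higher (5 with the replicate number as a block) and 1 lower, with a median of 0.03. The higher shares were 8.51% and 6.25%, against 8.22% of all genes, and the lower shares 4.26% and 2.08%, against 6.9%. Birc5, survivin, read 10.30, 10.05 and 10.11 in miR-29a cells and 9.43, 9.20 and 8.96 in Let-7b cells, 1.94-fold higher (adjusted p 0.000204), with controls of 10.31 to 10.34. Without Let-7b replicate 3 the replication count of 4 became 1 and the mitosis count of 3 became 1. Of 29 interferon-stimulated genes 0 passed in either direction (limma; 1 was higher and 0 lower at an unadjusted p under 0.05, and 0 with the replicate number as a block). Of 20 cholesterol synthesis genes 2 were lower (10.0%, against 6.9% of all genes), Dhcr7 (1.62-fold) and Insig1 (1.58-fold). The Insig1 call ended without miR-29a replicate 2 (adjusted p 0.154), miR-29a replicate 3 (0.165), Let-7b replicate 1 (0.119) or Let-7b replicate 3 (0.0759), and with a robust variance prior (0.0687).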
